A study of Mus musculus with 217 samples.

Results

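The 33 genes described here are expressed mainly or strongly by astrocytes, and they were taken by name from a list of astrocyte genes. The list was chosen with earlier results of these data known. All 33 symbols matched 1 identifier each among the 54532 genes of the deposited tables, and all 33 had counts in every fit. The list holds 30 genes of resting astrocyte function, called homeostatic here, and 3 genes that astrocytes raise when they become reactive, Gfap, Vim and Serpina3n.

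Astrocytes clear glutamate from the synaptic cleft, convert it to glutamine for return to neurons, buffer potassium and water, store glycogen and secrete lipoproteins. In injury and neurodegeneration they can become reactive, a state in which they build intermediate filaments and secrete acute-phase proteins. In Huntington's disease, where spiny projection neurons of the striatum degenerate, reduced glutamate uptake and potassium buffering by striatal astrocytes have been described as part of the disease, and the question here is how the transcripts of these genes stood when mutant Htt (mHtt) was expressed, and when it was lowered at different ages.

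RNA-Seq of striatum and cortex from 110 mice gave 217 libraries, 107 from striatum and 110 from cortex, with 100 at 6 months and 117 at 12 months of age. All mice were C57BL/6 and carried the LacIR transgene, a lac repressor driven by the ubiquitous β-actin promoter, the WT controls included. LacQ140 mice had in addition 1 Htt allele with an expanded repeat behind lac operators, Hdh(LacO-140Q/+), which the repressor lowers in part, without silencing it, unless the drug IPTG is given. WT mice without IPTG (WT), WT mice given IPTG from embryonic life on (WT + IPTG) and LacQ140 mice given IPTG throughout (LacQ140) were sequenced at both ages. LacQ140_A mice never received IPTG, so that mHtt was lowered from conception. IPTG was withdrawn at 2 months in LacQ140_2M mice and at 8 months in LacQ140_8M mice, which were sequenced at 12 months only. Each group held 10 mice, 5 of each sex, except that WT, LacQ140 and LacQ140_8M had 9 striatal libraries each at 12 months. The repressor acts in all tissues, so the lowering was not limited to astrocytes or neurons.

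The promoters of 6 genes are shown because the results turn on them: the 3 reactive genes, and the 3 homeostatic genes that were called lower in LacQ140 striatum at both ages (adjusted p-value and a 1.2-fold bound). Each window runs from 250 bases before to 50 bases after a RefSeq start site (GRCm38.p6), 5′ to 3′ on the gene's own strand, and capitals mark a match to a searched motif.
Serpina3n, chr12:104406458-104406757, plus strand: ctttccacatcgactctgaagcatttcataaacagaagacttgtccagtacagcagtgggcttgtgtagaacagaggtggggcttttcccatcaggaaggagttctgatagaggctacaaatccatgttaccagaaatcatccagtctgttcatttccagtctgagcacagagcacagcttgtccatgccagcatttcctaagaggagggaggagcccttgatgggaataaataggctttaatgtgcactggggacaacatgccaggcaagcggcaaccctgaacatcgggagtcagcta
Gfap, chr11:102897151-102897450, minus strand: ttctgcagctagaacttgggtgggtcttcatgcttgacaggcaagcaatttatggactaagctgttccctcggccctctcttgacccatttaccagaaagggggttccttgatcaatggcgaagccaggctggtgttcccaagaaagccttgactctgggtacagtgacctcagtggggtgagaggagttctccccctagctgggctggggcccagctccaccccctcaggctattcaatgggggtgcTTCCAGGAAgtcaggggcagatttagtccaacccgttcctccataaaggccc
Vim, chr2:13574061-13574360, plus strand: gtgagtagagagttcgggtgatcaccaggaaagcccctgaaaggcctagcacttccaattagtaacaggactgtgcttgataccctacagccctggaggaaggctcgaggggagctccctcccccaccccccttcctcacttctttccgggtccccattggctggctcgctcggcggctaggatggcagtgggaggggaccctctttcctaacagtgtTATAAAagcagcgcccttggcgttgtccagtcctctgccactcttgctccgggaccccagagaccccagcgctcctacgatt
Slc1a2, chr2:102706188-102706487, plus strand: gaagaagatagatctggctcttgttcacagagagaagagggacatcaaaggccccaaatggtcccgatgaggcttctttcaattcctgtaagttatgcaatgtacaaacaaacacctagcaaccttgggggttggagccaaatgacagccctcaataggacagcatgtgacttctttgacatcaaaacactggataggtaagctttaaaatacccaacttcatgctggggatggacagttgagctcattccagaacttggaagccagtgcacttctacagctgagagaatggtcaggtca
Glul, chr1:153899679-153899978, plus strand: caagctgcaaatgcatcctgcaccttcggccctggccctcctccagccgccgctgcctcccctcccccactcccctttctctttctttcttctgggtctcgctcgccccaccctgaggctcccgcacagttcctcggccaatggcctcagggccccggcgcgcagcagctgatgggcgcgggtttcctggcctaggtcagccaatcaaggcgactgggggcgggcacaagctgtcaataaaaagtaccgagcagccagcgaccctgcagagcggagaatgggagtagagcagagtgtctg
Ppp1r3c, chr19:36736555-36736854, minus strand: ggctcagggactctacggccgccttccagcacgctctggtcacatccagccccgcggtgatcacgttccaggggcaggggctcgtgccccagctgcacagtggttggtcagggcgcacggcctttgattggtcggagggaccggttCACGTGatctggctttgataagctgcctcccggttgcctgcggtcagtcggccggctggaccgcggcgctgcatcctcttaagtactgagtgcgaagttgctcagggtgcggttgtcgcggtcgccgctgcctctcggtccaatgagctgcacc
The Slc1a2, Gfap, Vim and Ppp1r3c start sites lie inside their gene models in GENCODE vM21, which begin further upstream. The Slc1a2 model begins at chr2:102658659, far upstream of its window, so that window holds an internal start site. The motifs searched on both strands were TTCCNGGAA (bound by STAT factors), TTGGCA (nuclear factor I), ACAATGG and ACAAAGG (SOX factors), CACGTG (E box) and TATAAA. The capitals in Gfap are a TTCCNGGAA match, those in Vim a TATAAA match and those in Ppp1r3c a CACGTG match. Windows were given for 27 of the 33 genes, 32 windows in all, and not for Aqp4, Slc14a1, Atp1b2, Clu, Sparcl1 and Sox9. TTCCNGGAA stood in 3 of the 32 windows, those of Gfap, Agt and Aldoc, and in 1.15% of 32817 windows of all genes. TTGGCA stood in 6 of the 32 windows against 14.1% of all, TATAAA in 6 against 13.6%, CACGTG in 3 against 7.15%, ACAAAGG in 2 against 5.89%, and ACAATGG in none against 3.67%. A match describes letters only, and a window without one says nothing about a factor.

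The library totals lay between 33292057 and 68038831 expected counts. Total Htt, of both alleles, was lower in LacQ140_A than in WT mice in all 4 combinations of tissue and age, by log2 fold changes of -0.40 to -0.72, each called. Against LacQ140 mice the Htt values were -0.20 to -0.49 for LacQ140_A, -0.15 to -0.43 for LacQ140_2M, and -0.001 in striatum and -0.41 in cortex for LacQ140_8M, and none was called, so that no difference in total Htt was seen in the LacQ140_8M striatum. LacQ140 mice were themselves called lower than WT + IPTG mice in the 12-month striatum (-0.40) and the 6-month cortex (-0.36), with values of -0.12 in the 6-month striatum and -0.14 in the 12-month cortex, and the expanded allele cannot be read apart from the normal one in these counts. The summed level of 9 spiny projection neuron markers over all groups was at least 4262 CPM, which are scaled counts relative to library size, in every striatal library and at most 562 CPM in every cortical one. Slc17a7, a transporter of cortical excitatory neurons, was at 286.4 CPM in the 12-month striatal library LacQ140 M2, the highest of the striatal libraries, against 68.2 CPM at most in WT + IPTG mice of that age. Without this library 14 of the 33 genes were called in the main comparison of the 12-month striatum, in place of 13. The 12-month cortex libraries stood apart from all others: the slope of log2 CPM on log2 transcript length was -0.54 to -0.11 there and 0.021 to 0.46 in the other libraries. Age coincides with the batch that the labels name, so levels were not compared between ages. In bulk tissue, fewer astrocytes and less RNA per astrocyte cannot be told apart.

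Levels between genes were compared per length, as CPM per kilobase of the longest transcript, in WT + IPTG mice. In the 6-month striatum Apoe, the main lipid carrier of the brain, was the most abundant at 1185 CPM per kilobase, followed by Glul at 810.2, Sparcl1 at 568.6, Aldoc at 465.5 and Clu at 455.2. The least abundant were Slc14a1, a urea transporter, at 2.85, Sox9, an astrocyte transcription factor, at 4.00, and Serpina3n at 4.42 CPM per kilobase. Within groups the SD of log2 CPM had a median of 0.154 over the 33 genes in the 6-month striatum and 0.159 in the 12-month striatum, against 0.177 and 0.300 in cortex. The most variable gene in striatum was Agt, the precursor of angiotensin, with an SD of 0.414 at 6 months and 0.412 at 12 months.

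The main comparison, LacQ140 against WT + IPTG, asks what mHtt does with IPTG in both groups. A gene was called when its adjusted p-value (edgeR quasi-likelihood F-test, Benjamini-Hochberg over all genes) was under 0.05 and its level changed by at least 1.2-fold in either direction, which for a lower gene is a fall of at least 16.7%. In the 6-month striatum 6 of the 33 genes were called, 1 higher and 5 lower, against 7.93% of all genes tested, of which 3.97% were higher and 3.96% lower. In the 12-month striatum 13 of 33 were called, 1 higher and 12 lower, against 9.44% of all genes, 4.58% higher and 4.86% lower. By the adjusted p-value alone, 13 genes passed at 6 months, 12 of them lower, against 11.8% of all genes, and 21 at 12 months, 18 of them lower, against 14.0%. Calls of Slc1a2, Glul and Slc7a10 at 6 months and of Atp1b2, Aldoc, Mfge8 and Daam2 at 12 months lay near the 1.2-fold bound and fell under it when certain single libraries were left out. The median log2 fold change of the 30 homeostatic genes was -0.14 at 6 months and -0.24 at 12 months, against 0 over all genes at both ages.

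**Figure D1:**
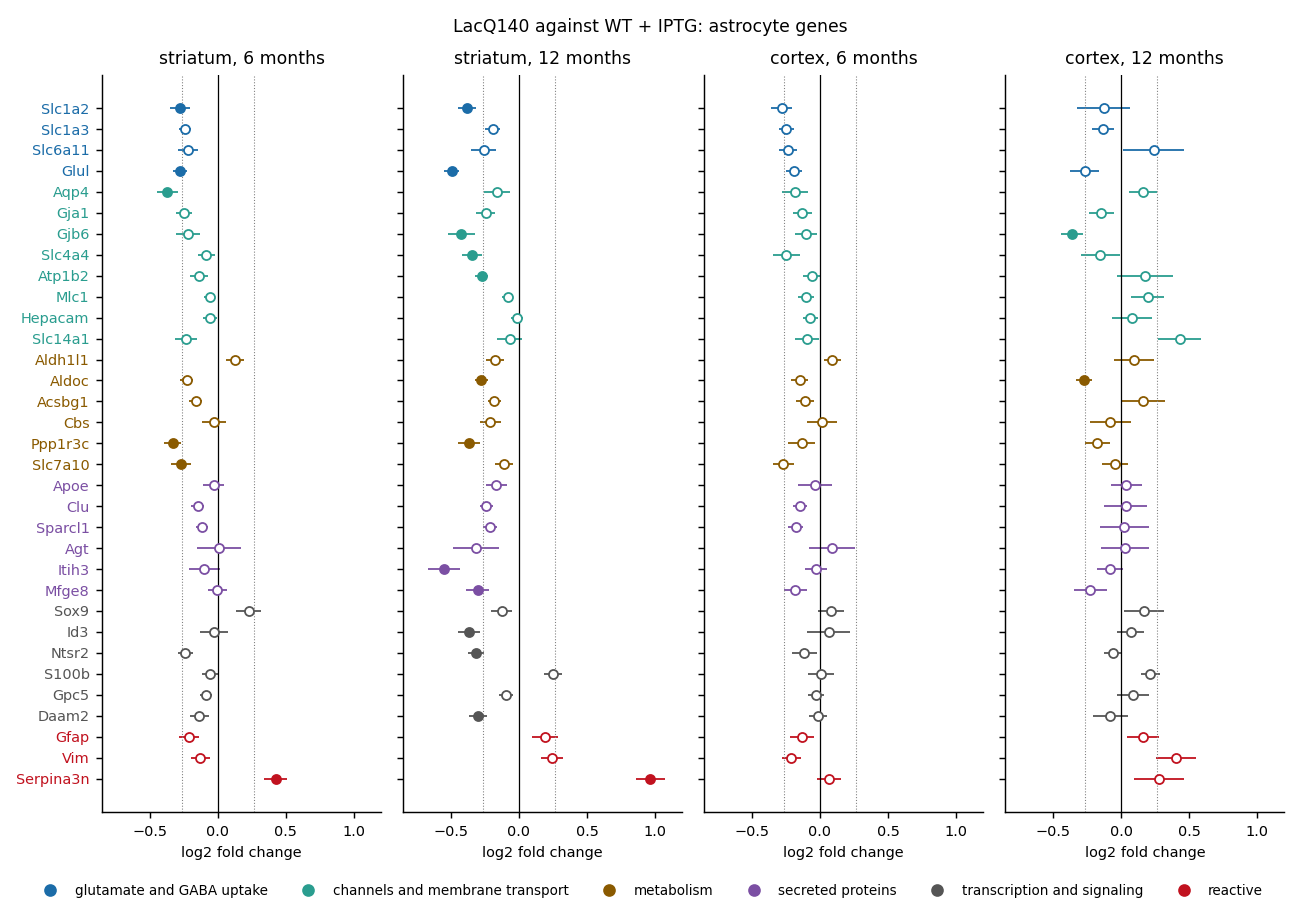
Log2 fold change of each of the 33 genes in LacQ140 against WT + IPTG mice (x axis) by gene (y axis), 1 panel per tissue and age. Points are edgeR estimates with standard errors, filled where called and colored by role, with dotted lines at a 1.2-fold change, and in the 12-month striatum 29 of the 30 homeostatic genes lie left of 0 and the 3 reactive genes right of it.

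Of the 4 glutamate and GABA uptake genes 2 were called lower at each age, against 3.96% of all genes called lower at 6 and 4.86% at 12 months, and all 4 passed the adjusted p-value at both ages with lower levels. Both 6-month calls were lost with WT mice with and without IPTG together as the control. Slc1a2 encodes GLT-1, the main glutamate transporter of the forebrain. At 6 months its level in striatum was 1497 CPM at the lowest, 1847 at the median and 2228 at the highest in LacQ140 mice, and 1849, 2245 and 2725 CPM in WT + IPTG mice. All 10 LacQ140 libraries lay below the WT + IPTG median and 5 below every WT + IPTG library, and the log2 fold change was -0.28 (adjusted p = 0.00654, SE 0.074). At 12 months the values were 1429, 1779 and 2019.5 CPM in LacQ140 and 1850, 2375 and 2522 CPM in WT + IPTG mice. There 7 of 9 LacQ140 libraries lay below every WT + IPTG library, with a log2 fold change of -0.38 (adjusted p = 1.17e-05, SE 0.067).

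Glul encodes glutamine synthetase, which turns captured glutamate into glutamine. At 6 months it was at 1561, 1861 and 2413 CPM (lowest, median, highest) in LacQ140 striatum and at 2087, 2229 and 2482 CPM in WT + IPTG striatum, a log2 fold change of -0.28 (adjusted p = 4.35e-05, SE 0.050). All but 1 of the 10 LacQ140 libraries lay below every WT + IPTG library. At 12 months Glul was at 1311, 1421 and 1682 CPM in LacQ140 and at 1850, 1983 and 2400 CPM in WT + IPTG mice. The groups did not overlap, and the log2 fold change was -0.50 (adjusted p = 4.92e-11, SE 0.054). Overlap was counted for the genes described here only, so no share over all genes stands beside it, here and below. Slc1a3, which encodes the glutamate transporter GLAST, changed by less than 1.2-fold at both ages but passed the adjusted p-value, with log2 fold changes of -0.24 and -0.19. Slc6a11, the GABA transporter GAT-3, did likewise at -0.22 and -0.26.

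Of the 8 channel and membrane transport genes, Aqp4 alone was called at 6 months, as lower, against 3.96% of all genes called lower. Gjb6, Slc4a4 and Atp1b2 were called lower at 12 months, against 4.86% of all genes. Aqp4, the water channel of astrocyte endfeet, was at 55.7, 62.4 and 70.7 CPM (lowest, median, highest) in 6-month LacQ140 striatum and at 70.6, 79.3 and 112.1 CPM in WT + IPTG striatum. The groups overlapped by 1 LacQ140 library, and the log2 fold change was -0.37 (adjusted p = 0.000369, SE 0.077). At 12 months the Aqp4 log2 fold change was -0.16 (adjusted p = 0.337, SE 0.096). Gjb6, the gap junction protein connexin 30, was at 30.3, 43.8 and 56.1 CPM in 12-month LacQ140 striatum against 41.1, 58.9 and 71.6 CPM, a log2 fold change of -0.42 (adjusted p = 0.00132, SE 0.101). Every LacQ140 library lay below the WT + IPTG median. Slc4a4, a sodium bicarbonate cotransporter, and Atp1b2, a subunit of the sodium pump, had log2 fold changes of -0.34 (SE 0.071) and -0.27 (SE 0.048), again with all 9 LacQ140 libraries below the WT + IPTG median. Gja1, connexin 43, passed the adjusted p-value at both ages with log2 fold changes of -0.25 and -0.24 without reaching the 1.2-fold bound. Mlc1 and Hepacam, partners in an astrocyte junction complex, had values of -0.060 and -0.056 at 6 months and of -0.083 and -0.012 at 12 months.

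Among the 6 metabolic genes, Ppp1r3c and Slc7a10 were called lower at 6 months, against 3.96% of all genes. Ppp1r3c and Aldoc were called lower at 12 months, against 4.86% of all genes. Ppp1r3c encodes a subunit that directs protein phosphatase to glycogen. At 6 months it was at 49.7, 54.5 and 66.3 CPM in LacQ140 and at 63.2, 69.9 and 87.9 CPM in WT + IPTG striatum, with 8 of 10 LacQ140 libraries below every control and a log2 fold change of -0.33 (adjusted p = 6.36e-05, SE 0.061). The 12-month values were 34.3, 39.3 and 46.6 CPM against 38.1, 55.1 and 58.5 CPM, with 3 of 9 libraries below every control and a log2 fold change of -0.37 (adjusted p = 0.000500, SE 0.082). Slc7a10, a transporter of small neutral amino acids, was at a median of 17.1 CPM in 6-month LacQ140 and 20.4 CPM in WT + IPTG striatum, with 7 of 10 LacQ140 libraries below every control (log2 fold change -0.27, adjusted p = 0.00898, SE 0.074). Aldoc, the brain form of the glycolytic enzyme aldolase, was at medians of 908.1 and 1121.2 CPM at 12 months (log2 fold change -0.28, adjusted p = 3.22e-06, SE 0.046). Aldh1l1, a folate enzyme widely used as an astrocyte marker, had log2 fold changes of 0.12 and -0.17 and was called at neither age.

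Of the 6 genes of secreted proteins none was called at 6 months by edgeR or DESeq2, against 7.93% of all genes by edgeR. There 2 of them had an unadjusted p under 0.05 and Clu alone passed the adjusted p-value. At 12 months Itih3 and Mfge8 were called lower, against 4.86% of all genes. The difference of the effect between ages was called for none of the 6. Itih3, a heavy chain that binds hyaluronan, was at 25.3, 29.1 and 38 CPM in LacQ140 striatum and at 34.1, 41.5 and 73.4 CPM in WT + IPTG striatum. All but 1 of the 9 LacQ140 libraries lay below every control, and the log2 fold change was -0.55 (adjusted p = 0.000271, SE 0.116), or -0.44 without the control library WT + IPTG M5 at 73.4 CPM. Mfge8, a bridging protein in the uptake of dying cells, had a log2 fold change of -0.30 (adjusted p = 0.00598, SE 0.083). Apoe and Sparcl1, the synapse-organizing protein hevin, were not called at either age, with log2 fold changes of -0.17 and -0.21 at 12 months.

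Of the 6 transcription and signaling genes none was called at 6 months by edgeR or DESeq2, against 7.93% of all genes by edgeR. There 3 of them had an unadjusted p under 0.05 and Ntsr2 alone passed the adjusted p-value (-0.24). Id3, Ntsr2 and Daam2 were called lower at 12 months, against 4.86% of all genes. Ntsr2, a neurotensin receptor of astrocytes, was at 77.7, 94.1 and 114.8 CPM in LacQ140 and at 111.3, 119.6 and 125.7 CPM in WT + IPTG mice. Here 8 of 9 LacQ140 libraries lay below every control (log2 fold change -0.32, adjusted p = 2.24e-05, SE 0.058). Id3, an inhibitor of helix-loop-helix factors, and Daam2, a formin of the Wnt pathway, had log2 fold changes of -0.37 (SE 0.079) and -0.30 (SE 0.063). S100b, a calcium-binding protein, was the exception among the 30 homeostatic genes at 12 months, with a log2 fold change of 0.25 that passed the adjusted p-value but not the 1.2-fold bound. Sox9 and Gpc5 were not called at either age.

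Of the 3 reactive genes Serpina3n was called higher at both ages, against 3.97% of all genes at 6 and 4.58% at 12 months. Gfap and Vim were called at neither age. Serpina3n, a secreted protease inhibitor of the acute-phase response, was at 9.04, 12.7 and 14.4 CPM (lowest, median, highest) in 6-month LacQ140 striatum and at 7.63, 8.52 and 11.5 CPM in WT + IPTG striatum, a log2 fold change of 0.42 (adjusted p = 0.000266, SE 0.086). Its 12-month values were 18.6, 21.2 and 31.8 CPM against 9.66, 11.1 and 15.9 CPM. The groups did not overlap, and the level was 1.95 times that of the controls (log2 fold change 0.96, adjusted p = 4.66e-11, SE 0.106). Gfap, the intermediate filament protein that defines reactive astrocytes in histology, was at 97.3, 130.3 and 156.2 CPM in LacQ140 and at 125.5, 149.9 and 166.6 CPM in 6-month WT + IPTG mice. Its log2 fold changes were -0.21 (adjusted p = 0.0529, SE 0.075) at 6 months and 0.19 (adjusted p = 0.226, SE 0.097) at 12 months, with overlapping libraries at both ages. Vim, the intermediate filament vimentin, had log2 fold changes of -0.13 (adjusted p = 0.272, SE 0.069) and 0.24 (adjusted p = 0.0253, SE 0.079), the second below the 1.2-fold bound. Serpina3n belongs to a cluster of near-identical genes, and reads may have been shared among them in counting. Gfap, Slc1a2, Slc6a11, Glul, Aldh1l1, Slc7a10, Sparcl1, S100b and Gpc5 each overlap a gene on the other strand, and whether counting used strand is not given in the sources used here.

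**Figure D2:**
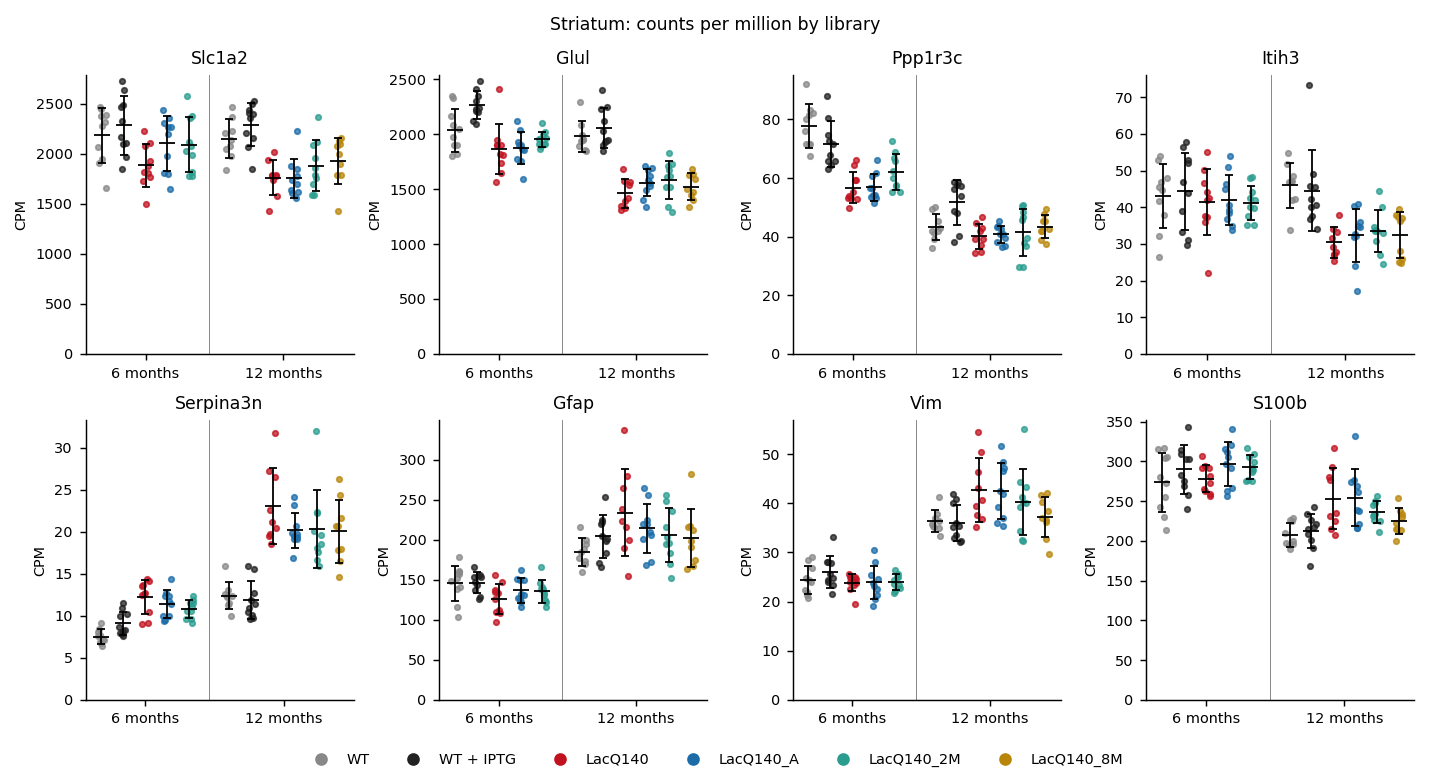
CPM of 8 genes in each striatal library (y axis, linear from 0) by age and group (x axis); points are mice, bars the mean and SD. Slc1a2, Glul and Ppp1r3c were lower in LacQ140 than in WT + IPTG mice at both ages, Itih3 was lower at 12 months, and Serpina3n was higher at both ages while the Gfap values overlapped.

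The effect of mHtt in striatum was then compared between 12 and 6 months, within 1 fit of both ages. Called differences were found for 3 of the 33 genes, against 2.07% of all genes, and all 3 were more positive at 12 months. They were Serpina3n (difference of log2 fold changes 0.54, adjusted p = 0.0159, SE 0.138), Vim (0.37, adjusted p = 0.0391, SE 0.107) and S100b (0.31, adjusted p = 0.0485, SE 0.092). The Serpina3n control moved too: its log2 ratio of mean CPM to WT mice was 0.28 at 6 and -0.07 at 12 months in WT + IPTG mice. That ratio was 0.7 and 0.9 in LacQ140 mice, and 0.6 and 0.7 in LacQ140_A mice, which never had IPTG. The part of the control in the difference was not tested. For Gfap the difference was 0.40 (adjusted p = 0.0708, SE 0.127). With all genes tested, no homeostatic gene was called more negative at 12 than at 6 months, Glul having the value -0.22 (adjusted p = 0.108, SE 0.075). When only genes kept by edgeR's filterByExpr were tested, 5 genes were called, Gfap in addition as more positive and Aldh1l1 as more negative. In cortex none of the 33 was called by edgeR, against 0.00268% of all genes, and 6 had an unadjusted p under 0.05.

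Summed, the 30 homeostatic genes made up 10573 to 11691 CPM in the 9 LacQ140 striata at 12 months and 12517 to 14246 CPM in the 10 WT + IPTG striata, which did not overlap. At 6 months the sums were 10722 to 13699 CPM in LacQ140 and 12162 to 14855 CPM in WT + IPTG mice, with overlap. These sums rest mostly on the abundant genes, Glul and Slc1a2 among them. The sums of the 3 reactive genes overlapped at both ages, at 127.3 to 193.7 CPM against 155.4 to 201.9 CPM at 6 months and at 210.2 to 412.6 CPM against 208.0 to 301.4 CPM at 12 months.

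Other astrocyte genes were read from lists chosen by function, with earlier results of these data known. Of 30 further homeostatic genes, 10 were called lower and none higher in the 6-month striatum, and 11 lower and none higher in the 12-month striatum. Of all genes 3.96% were called lower and 3.97% higher at 6 months and 4.86% and 4.58% at 12 months, which are the shares beside which the striatal counts of this and the following lists stand. Their median log2 fold changes were -0.15 and -0.22. The called genes with the smallest p-values included Dio2, which activates thyroid hormone (-0.79 at 6 and -0.70 at 12 months), Grm3, a glutamate receptor (-0.42 and -0.65), and S1pr1, a sphingosine phosphate receptor (-0.36 and -0.37). Of 10 genes raised in several kinds of reactive astrocytes, 1 was called lower at 6 months (Osmr, -0.35) and 2 lower at 12 months (Hspb1, -0.67, and Cxcl10, -1.36), with none higher. Of 12 genes of the A1 type, raised in neuroinflammation, 5 were called lower at 6 months and 3 at 12 months, with none higher. Of 12 genes of the A2 type, raised after ischemia, 3 were lower at 6 months, and at 12 months 2 were higher (Ptgs2, 0.52, and Tgm1, 0.94) and 1 lower (S100a10, -0.77). Some of these levels were low at 12 months. Tgm1 averaged 0.18 CPM in WT + IPTG and 0.351 CPM in LacQ140 mice, Ptgs2 2.54 and 3.63 CPM, and Cxcl10 1.01 and 0.389 CPM.

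Markers of other cell types moved as well in the same comparison. Spiny projection neuron markers were lower for 8 of 9 genes at both ages, and their summed level was 4888 to 6273 CPM in LacQ140 and 6028 to 8947 CPM in 6-month WT + IPTG mice, and 4262 to 5343 against 7357 to 10341 CPM at 12 months. Oligodendrocyte markers were lower for 5 of 9 genes at 6 months (9858 to 12410.3 against 12827 to 16476 CPM summed) and for 3 of 9 at 12 months, with 1 higher (8715 to 14160.5 against 11318 to 15178 CPM). Of 10 endothelial and mural markers 3 were lower at 6 and 4 at 12 months, and of 10 microglial markers 4 and 1 were lower, against 3.96% of all genes called lower at 6 and 4.86% at 12 months. Of 4 oligodendrocyte precursor markers Gpr17 was lower at 6 months (-0.32) and none was called at 12 months by edgeR, where 0 had an unadjusted p under 0.05. Of 6 neuroblast markers 3 were higher at 6 months and 2 at 12 months. The ependymal and choroid plexus list of 9 genes summed to 36.5 to 434.6 CPM in WT + IPTG and 39.5 to 52.4 CPM in LacQ140 striata at 12 months. In it Ttr, the choroid plexus carrier of thyroid hormone, ranged from 3.21 to 386.2 CPM in 12-month WT + IPTG and from 3.94 to 15.1 CPM in LacQ140 striata, and was called lower at both ages, as was Kcnj13 of the choroid plexus. At 6 months the control library WT + IPTG M5 was the highest for both, with Ttr at 687.7 and Kcnj13 at 2.70 CPM. Whether the 6-month calls depend on that library was not tested. Without it, a choice made after seeing the data, Ttr averaged 19.8 CPM in WT + IPTG and 26.1 CPM in LacQ140 mice, and Kcnj13 0.213 and 0.182 CPM. At 12 months WT + IPTG F5 was the highest, and without it Ttr averaged 48.4 CPM against 8.18 CPM and Kcnj13 0.422 against 0.166 CPM, with medians in all libraries of 15.5 and 7.85 CPM for Ttr. The ependymal genes Dynlrb2 (0.62) and Tmem212 (0.51) were called higher at 12 months, and the defining ependymal factor Foxj1 lay at 12.3 to 17.3 and 11.1 to 19.4 CPM and was not called. Of 6 meningeal markers Igf2 was lower at both ages (-0.39 each) and Dcn at 6 months (-0.43). Of 9 general neuron markers none was called at 6 months by edgeR, with 6 at an unadjusted p under 0.05, and 1 was higher at 12 months. Kcnj13 was the marker at 0 in some of these striatal libraries. The part of these changes in the astrocyte results was not tested.

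In cortex fewer of the 33 genes were called with WT + IPTG mice as the control. With both WT groups as the control, more were called in the 6-month cortex than in the 6-month striatum, by counts given below. At 6 months edgeR called none, against 0.881% of all genes, with 11 at an unadjusted p under 0.05, while DESeq2 called Slc1a2 and Slc7a10 lower. Slc1a3 passed the adjusted p-value with a log2 fold change of -0.25 (adjusted p = 0.0186), and the 4 uptake genes lay between -0.28 and -0.19. At 12 months Gjb6 and Aldoc were called lower, against 0.0899% of all genes. Gjb6 lay between 65.0 and 109.2 CPM in LacQ140 and between 97 and 146.7 CPM in WT + IPTG cortex (log2 fold change -0.36, adjusted p = 0.0321, SE 0.080), and Aldoc between 1160.4 and 1561 against 1448 and 1832 CPM (log2 fold change -0.27, adjusted p = 0.0377, SE 0.061). All 10 LacQ140 libraries lay below the WT + IPTG median for both genes. Of 20 fits that left out 1 library each, Gjb6 lost its call in 7 and Aldoc in 13, and the count fell to 0 in some. Gjb6 was also lost with the replicate block and Aldoc with both WT groups as the control (-0.26). With the length slope as a covariate 5 were called lower in the 12-month cortex, Slc1a2, Glul and Mfge8 in addition. The 0.0899% of all genes belongs to the fit without this covariate, so it is no measure for these 5.

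Of the other lists in the 6-month cortex, 4 of the 30 further homeostatic genes were called lower, Dio2 (-0.60), Grm3 (-0.34), Pla2g7 (-0.31) and S1pr1 (-0.29), and 1 gene each of the A1 and A2 types, Fbln5 (-0.36) and Emp1 (-0.66). Among markers of other cell types, Acta2 (-0.57), Ly6c1 (-0.38) and Cdh5 (-0.27) of the vessels and Gpr17 (-0.37) of oligodendrocyte precursors were called lower there. In the 12-month cortex these lists held 1 call, Ptgs2 of the A2 type (-0.49). The shares of all genes called in cortex, in either direction, were 0.881% at 6 and 0.0899% at 12 months.

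The difference of the mHtt effect between striatum and cortex was tested within mice. At 12 months 3 of the 33 were called, against 2.80% of all genes, each more negative in striatum: Itih3 (-0.52, adjusted p = 0.00754, SE 0.125), Id3 (-0.41, adjusted p = 0.0454, SE 0.121) and Ntsr2 (-0.29, adjusted p = 0.00810, SE 0.070). Id3 was not called with DESeq2's size factors. Serpina3n had a value of 0.64 (adjusted p = 0.0818, SE 0.206). At 6 months edgeR called none with TMM scaling, against 1.12% of all genes, with 4 at an unadjusted p under 0.05, and Serpina3n was at 0.35 (adjusted p = 0.0521, SE 0.097). Serpina3n was called at 6 months with DESeq2's size factors and with filterByExpr.

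IPTG itself was tested in WT mice, since the LacQ140 comparison rests on WT + IPTG mice. In the 6-month striatum 2 of 33 genes were called, against 0.584% of all genes. Gjb6 was at 67.7, 72.5 and 97.8 CPM with and 42.1, 56.9 and 73.5 CPM without IPTG (log2 fold change 0.40, adjusted p = 0.0133, SE 0.088), and Mfge8 at 82.4, 104.9 and 120.3 against 99.8, 132.4 and 153.4 CPM (-0.32, adjusted p = 0.00956, SE 0.069). In the 6-month cortex Aqp4 (-0.40, adjusted p = 0.0228, SE 0.093) and Gja1 (-0.28, adjusted p = 0.0328, SE 0.069) were lower with IPTG, against 0.609% of all genes. Both calls were lost with the replicate block and in a fit of the 2 groups alone. Aqp4 was there at 87.9, 97.1 and 121.6 CPM with IPTG and at 96.2, 123.8 and 181.3 CPM without it. At 12 months edgeR and DESeq2 called none, against 0.218% of all genes in striatum and 0% in cortex, with 8 and 3 genes at an unadjusted p under 0.05. The median log2 fold change of the homeostatic genes for IPTG was 0.035 in the 6-month and 0.059 in the 12-month striatum. When WT mice with and without IPTG together served as the control, LacQ140 striatum had 3 called genes at 6 months (Serpina3n higher, Aqp4 and Ppp1r3c lower) in place of 6, and 10 at 12 months (Serpina3n and S100b higher, 8 lower) in place of 13. With this control Slc1a2, Glul and Slc7a10 at 6 months and Ppp1r3c, Atp1b2, Aldoc and Mfge8 at 12 months were no longer called, with log2 fold changes of -0.21 to -0.25.

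Lowering of mHtt was compared with continued expression in the same fits, and these comparisons share the LacQ140 libraries with the one above. The lowering groups were off IPTG when sampled and LacQ140 mice were on it, so mHtt and IPTG changed together here and cannot be told apart. None of the 33 genes was called by edgeR or DESeq2 in any of the 10 comparisons. In striatum this held against 1.88% of all genes for LacQ140_A and 1.26% for LacQ140_2M at 6 months, and 0.910% for LacQ140_A, 0.608% for LacQ140_2M and 0.00565% for LacQ140_8M at 12 months. In cortex the shares of all genes were 0.00834% and 0% at 6 months and 0.0435%, 0.0841% and 0% at 12 months, in the same order. The numbers of the 33 at an unadjusted p under 0.05 were 9 and 7 in the 6-month striatum, 4, 3 and 5 in the 12-month striatum, 14 and 3 in the 6-month cortex, and 11, 0 and 0 in the 12-month cortex. When only the 2 groups compared entered the fit, 6 genes were called lower in the 12-month cortex of LacQ140_A mice, Slc6a11, Aqp4, Atp1b2, Acsbg1, Sparcl1 and Serpina3n. The 0.0435% of all genes above belongs to the fit of all groups, so it is no measure for these 6. A value that was not called does not show that the groups were alike, and the differences are given with their errors.

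Serpina3n in the 12-month striatum was at 23.1 ± 4.47 CPM (SD, n = 9) in LacQ140, 20.2 ± 2.10 (n = 10) in LacQ140_A and 20.3 ± 4.62 (n = 10) in LacQ140_2M and between 14.6 and 26.3 CPM (n = 9) in LacQ140_8M mice, while WT mice were at 12.4 ± 1.60 (n = 9) and WT + IPTG mice at 11.8 ± 2.26 CPM (n = 10). The log2 differences from LacQ140 were -0.19 (SE 0.104), -0.18 (SE 0.104) and -0.20 (SE 0.106), so all 3 lowering groups stood nearer to LacQ140 than to the WT groups. Glul at 12 months was at 1460 ± 130.3 CPM in LacQ140 (SD, n = 9), at 1557 ± 123.9 in LacQ140_A (n = 10), 1581 ± 170.6 in LacQ140_2M (n = 10) and 1523 ± 120.1 CPM in LacQ140_8M mice (n = 9). Its log2 differences were 0.093 (SE 0.054), 0.12 (SE 0.054) and 0.061 (SE 0.056). For Slc1a2 at 12 months they were -0.002 (SE 0.067), 0.098 (SE 0.067) and 0.13 (SE 0.069), and for Itih3 0.092 (SE 0.116), 0.14 (SE 0.116) and 0.094 (SE 0.119). At 6 months Slc1a2 had values of 0.16 (SE 0.074) in LacQ140_A and 0.15 (SE 0.074) in LacQ140_2M mice, and Ppp1r3c of 0.002 and 0.13 (SE 0.061 each). The median over the 30 homeostatic genes was 0.043 and 0.060 at 6 months and 0.041, 0.070 and 0.001 at 12 months, against log2 fold changes of LacQ140 from WT + IPTG with medians of -0.14 and -0.24.

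**Figure D3:**
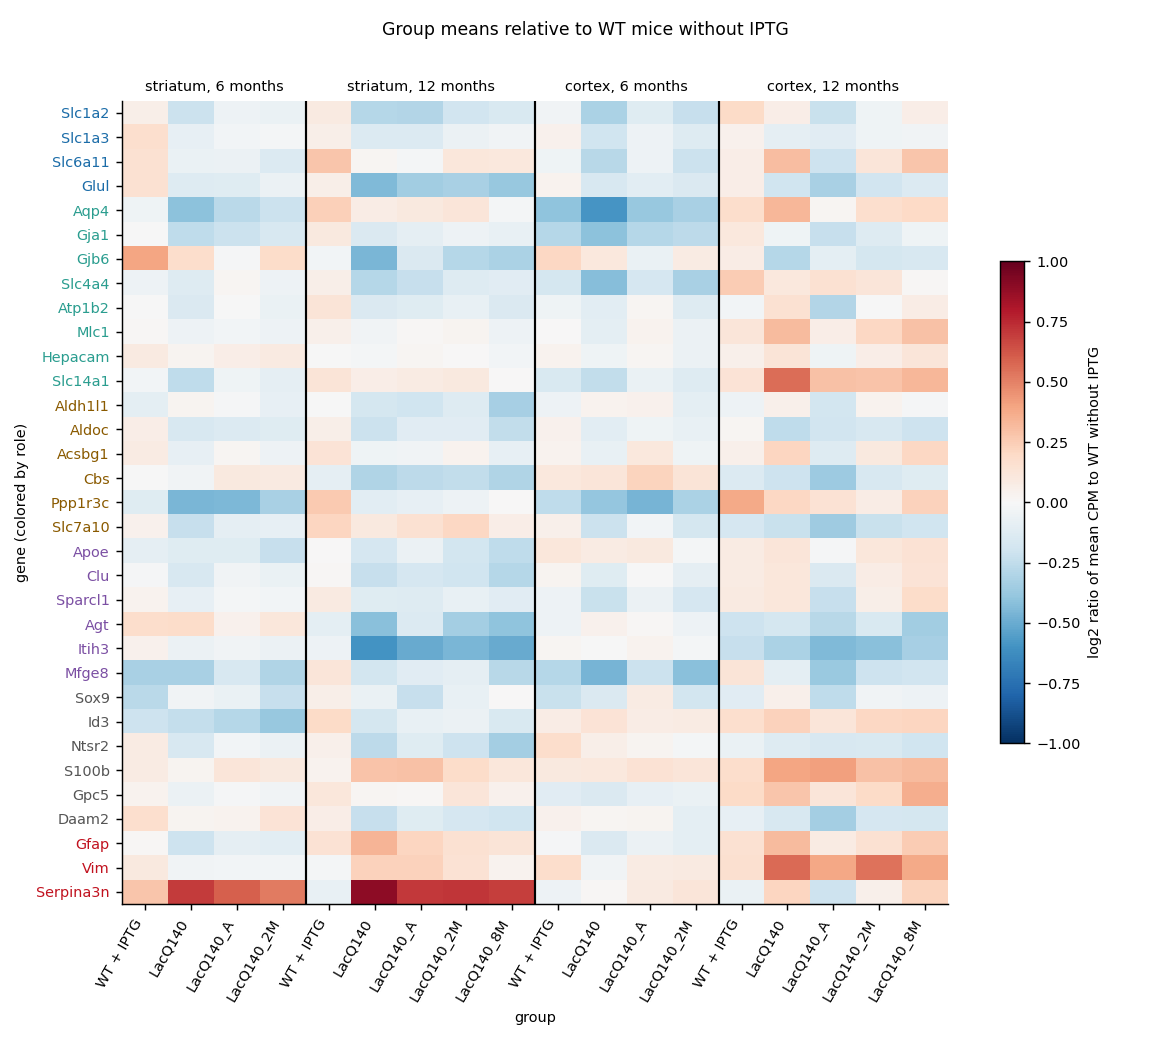
Log2 ratio of the mean CPM of each group to that of WT mice without IPTG, for the 33 genes (rows, colored by role) in 18 groups (columns, by tissue and age). In striatum Serpina3n is above WT in all LacQ140 groups at both ages, while Itih3 and Glul are below WT in all 4 LacQ140 groups at 12 months.

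LacQ140_A mice were also set against WT mice, 2 groups that never had IPTG and that share no library with LacQ140 and WT + IPTG. In the 6-month striatum 2 of 33 genes were called, against 0.910% of all genes. Serpina3n was at 9.40, 11.6 and 14.4 CPM in LacQ140_A and at 6.38, 7.38 and 9.14 CPM in WT mice (log2 fold change 0.60, adjusted p = 2.27e-05, SE 0.087), and Ppp1r3c at 51.5, 55.5 and 66.3 against 67.7, 78.3 and 92.2 CPM (-0.45, adjusted p = 3.09e-06, SE 0.061). Neither gene overlapped between the groups, and how often this held over all genes was not counted. In the 12-month striatum 6 were called, against 3.15% of all genes, Serpina3n (0.70, SE 0.107) and S100b (0.29, SE 0.066) higher and Itih3 (-0.51, SE 0.116), Glul (-0.35, SE 0.054), Slc1a2 (-0.29, SE 0.067) and Cbs (-0.26, SE 0.077), a cysteine synthesis enzyme, lower. Serpina3n at 16.9 to 24.2 against 10.0 to 15.9 CPM and Glul at 1334 to 1713 against 1844 to 2290 CPM did not overlap.

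In the 6-month cortex Ppp1r3c (-0.47, SE 0.097), Aqp4 (-0.38, SE 0.093) and Gja1 (-0.29, SE 0.069) were called lower in LacQ140_A than in WT mice, against 0.425% of all genes, and Aqp4 and Gja1 were the genes called for IPTG against the same WT libraries. In the 12-month cortex S100b was called higher, at 299.6, 429.1 and 504.0 against 283.9, 315.4 and 347.6 CPM (0.41, adjusted p = 0.00276, SE 0.072), against 0.0174% of all genes.

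Between the tissues of the same WT + IPTG mice, 18 of the 33 genes were called at 6 months, 5 higher and 13 lower in striatum, against 27.5% of all genes. At 12 months 29 were called, 24 higher and 5 lower, against 45.4% of all genes. Agt (1.31 and 2.61), Slc4a4 (0.68 and 2.43), Daam2 (0.43 and 1.95), Slc14a1 (0.37 and 1.36) and Itih3 (0.37 and 0.67) were called higher in striatum at both ages, and Gjb6 (-0.65 and -1.20) lower at both. Some genes were called at both ages in opposite directions, among them Slc1a2 at -0.55 (SE 0.072) at 6 months and 1.94 (SE 0.159) at 12 months, and Vim at -0.68 (SE 0.067) and 1.03 (SE 0.116). Across the 33 genes, Spearman's rho between the tissue difference and transcript length was 0.56 at 12 months and -0.093 at 6 months. The points share the same libraries, and the length slope of the 12-month cortex libraries moves with this comparison at 12 months, where its part was not tested.

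**Figure D4:**
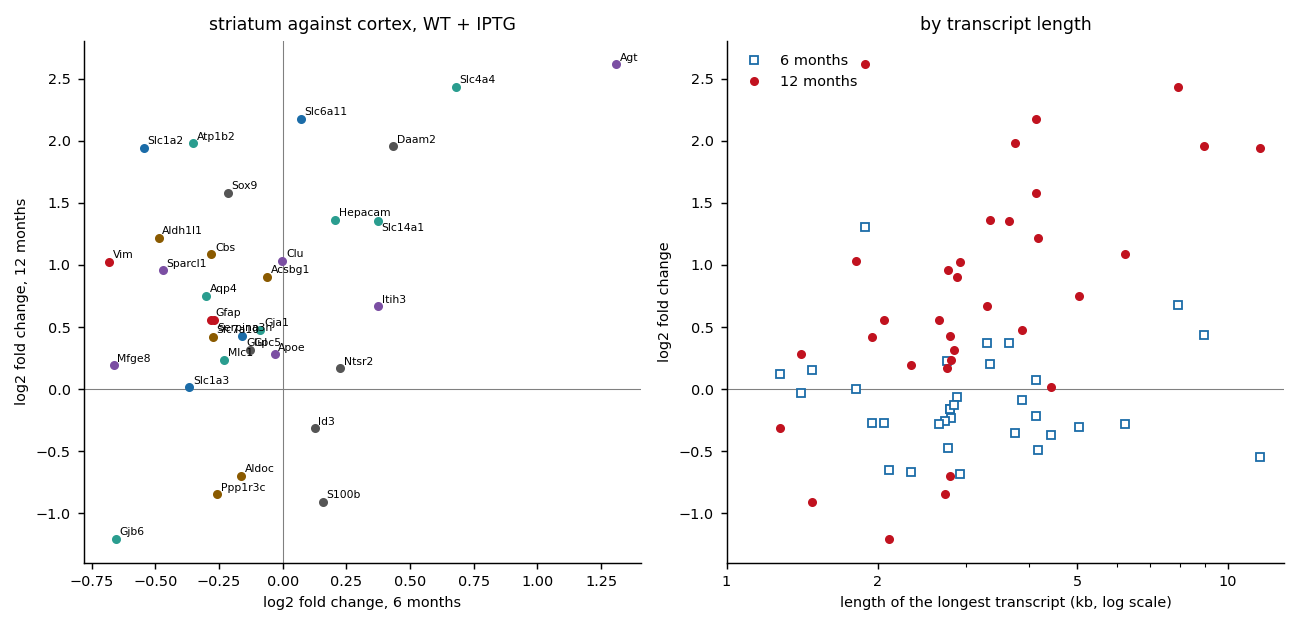
Left, log2 fold change of striatum against cortex in WT + IPTG mice at 6 months (x axis) and 12 months (y axis) for the 33 genes, colored by role. Right, the same values (y axis) by length of the longest transcript in kilobases (x axis, log scale), where the 12-month values (filled) rise with length with a rho of 0.56 and the 6-month values (open) have a rho of -0.093.

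The genes also varied together from mouse to mouse. Taking each library's deviation from its group mean in log2 CPM, the correlation of a homeostatic gene with the mean of the other homeostatic genes had a median of 0.44 over genes in the 6-month striatum (50 libraries) and 0.40 in the 12-month striatum (57 libraries), against 0.48 in the 6-month cortex (50) and 0.81 in the 12-month cortex (60). In striatum Sparcl1 (0.70) and Acsbg1 (0.66), a fatty acid activating enzyme, were highest at 6 months and Atp1b2 (0.70) at 12 months, while Id3 (0.01) was lowest at 6 months and Slc4a4 (-0.13) at 12 months. Of the reactive genes Gfap varied with the homeostatic genes (0.60 and 0.63 in striatum). Serpina3n had values of 0.43 and 0.57 there but of -0.22 in the 6-month cortex, and Vim had 0.22 and 0.28 in striatum. All values of a library share its depth and its length slope, which itself correlated with Slc1a2 by 0.86 and with Aldoc by -0.74 in the 6-month striatum. In the 12-month cortex, where the median was 0.81, the slope correlated with Atp1b2 by 0.95, Slc1a2 by 0.94, Slc6a11 by 0.91, Sparcl1 by 0.88 and Hepacam by 0.86, and its part in that median was not tested. With that slope as a covariate, Slc1a2 was still called lower in LacQ140 striatum, at -0.31 at 6 months and -0.36 at 12 months.

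The sexes did not differ in a called way. With sex as a term, edgeR called none of the 33 genes in either tissue at either age, against 0.279% of all genes in striatum at 6 months and 0.218% at 12 months, and 0.192% and 0.154% in cortex, and 7, 17, 10 and 3 had an unadjusted p under 0.05 in the same order. Slc7a10 in the 12-month striatum passed the adjusted p-value with a log2 fold change of -0.14 in males against females.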

How the data were processed

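The authors made 100-base paired-end reads from striatum and cortex RNA (NovaSeq 6000). The deposited values are expected counts per gene, 1 table per age, with 32.22% of nonzero values not whole (tolerance 1e-06). The submitters' processing notes name the build GRCm38, while the aligner, the quantifier and their settings are not given in the sources used here. Symbols and transcript lengths came from GENCODE vM21, which matched 54495 of 54532 identifiers. Library totals were 33292057 to 68038831, with medians of 50801766 at 6 months and 39823709 at 12 months, and mice were separate animals.

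Expected counts were rounded and scaled by TMM. Genes with at least 1 count were fitted per tissue and age over all groups with edgeR 4.0.16 (glmQLFit and glmQLFTest) in R 4.3.3, and p-values were adjusted by Benjamini-Hochberg over all genes tested. The SE was the absolute log2 fold change divided by the square root of F. The tissue comparisons blocked on mouse, and the age comparison fitted both ages of a tissue together. A call needed an adjusted p under 0.05 and a change of at least 1.2-fold in either direction. DESeq2 1.42.0, other scalings, filters, covariates and controls served as alternatives, and each LacQ140 and WT + IPTG library was left out in turn. The fits were tested on simulated counts. CPM values are TMM-scaled, and tables were made with Python 3.11.15 and pandas 2.3.3.

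All 33 genes are named, and of the other lists genes called in LacQ140 against WT + IPTG, at most 5 per list, tissue and age by smallest p. The genes and the lists were chosen with earlier results of these data known.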

Additional observations from a re-analysis of the deposited data

Results flagged for a closer look

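Among groups of 9 or 10 libraries, single libraries stood apart by Dixon's criterion in 8 of the 80 gene and group combinations examined, and chance alone marks about 1 in 20. Over all 726 combinations 51 were marked, in 32 libraries. In the 6-month striatum, WT + IPTG F5 was high for Aqp4 (112.1 CPM, the next library at 87.1) and for Gjb6 (97.8 CPM, next 83). LacQ140 F5 was high for Glul (2413 CPM, next 1945), against the direction of its group, and LacQ140 F4 was low for Vim (19.6 CPM, next 22.6). In the 12-month striatum, WT + IPTG M5 was high for Itih3 (73.4 CPM, next 49), LacQ140_A M4 for Slc1a2 (2222 CPM, next 1879.8) and LacQ140_A F3 for S100b (331.4 CPM, next 275.9). In the 6-month cortex WT + IPTG M3 was high for Aqp4 (121.6 CPM, next 105.8).

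The effect of mHtt differed by test between tissues at 12 months for Itih3 (striatum minus cortex -0.52 on the log2 scale), Id3 (-0.41) and Ntsr2 (-0.29). It differed between ages in striatum for Serpina3n (12 minus 6 months 0.54), Vim (0.37) and S100b (0.31).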

How the results depend on the processing

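Of the counts of called genes, 184 stayed within 1.5 times under the alternatives that left out no library and 26 did not. The 184 include counts of 0 that stayed 0, as in comparisons of lowering, and such counts could not fall. For single genes 159 values kept their call, 9 lost it and 0 reversed. Without the 1.2-fold bound, 13 genes passed in the 6-month and 21 in the 12-month LacQ140 striatum, 1 in the 6-month cortex and 1 between the sexes in the 12-month striatum. With both WT groups as control the counts were 3 in the 6-month striatum and 5 in the 6-month cortex. In the latter DESeq2 and filterByExpr gave 2 each, and sex as a covariate, the length slope and a fit of 2 groups gave 1 each. With the length slope the 12-month cortex gave 5 for LacQ140, 1 for IPTG and 3 for LacQ140_A against WT, where DESeq2 and filterByExpr gave 2 each. Fits of 2 groups gave 1 for IPTG in the 6-month striatum, 0 for IPTG and 1 for LacQ140_A against WT in the 6-month cortex, and 6 for LacQ140_A against LacQ140 in the 12-month cortex. The tissue difference at 6 months gave 1 with filterByExpr and 1 with DESeq2 size factors, and the age difference in striatum 5 with filterByExpr. The causes were not tested.

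Replicate numbers did not pair the mice (mean correlation of same-numbered libraries -0.062 to 0.011 over tissues and ages). With the replicate block, counts became 0 for IPTG and 1 for LacQ140_A against WT in the 6-month cortex and 1 for LacQ140 in the 12-month cortex, where Gjb6 was lost.

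Leaving out 1 library gave 4 to 8 genes in the 6-month striatum, 12 to 16 in the 12-month striatum, 0 to 3 in the 6-month cortex and 0 to 2 in the 12-month cortex. The 6-month striatum gave 4 without LacQ140 F1, M2 or M4 or WT + IPTG F5 or M1. The 6-month cortex gave 1 without LacQ140 F5 or M3 or WT + IPTG F4, and 3 without WT + IPTG M4. At 6 months Slc1a2 lost its call without LacQ140 M2 or M4 or WT + IPTG F2, F5 or M1, Glul without LacQ140 F1 or M2, and Slc7a10 without any of 8 libraries. At 12 months in striatum Atp1b2 lost it without LacQ140 M3 or M4 or WT + IPTG F3 or F5, Aldoc without LacQ140 M3 or WT + IPTG F3 or M4, Mfge8 without LacQ140 M3, and Daam2 without WT + IPTG M5. In the 12-month cortex Gjb6 lost it in 7 and Aldoc in 13 of the fits. In striatum these genes kept an adjusted p under 0.05 by edgeR and fell under the 1.2-fold bound.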
